A study of Mus musculus with 42 samples.

Results

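The haemato-vascular mesoderm genes described here were 10 genes that are widely used to follow the mesoderm that gives rise to blood and blood vessels. They comprised the receptors Kdr, Flt1, Pdgfra, Pdgfrb and Tek, the transcription factors Etv2, Tal1 and Runx1, and the junction proteins Cdh5 and Pecam1. The genes were chosen by name, with earlier results of these data known. They were matched to the array through the RefSeq accession of each probe, which gave 13 of 55681 probes and 10 of 20957 named genes. A gene was represented by its brightest probe over all 42 arrays, and the second probe of Kdr, Etv2 and Runx1 is given beside it. All values are quantile normalised log2 intensities of single-colour arrays.

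In the gastrulating embryo, cells that leave the primitive streak as mesoderm carry the VEGF receptor encoded by Kdr, usually together with PDGF receptors in the wider mesoderm. Brief expression of the ETS factor gene Etv2 commits a fraction of them to blood and endothelium, after which Tal1 and Runx1 act in blood formation, while Cdh5, Pecam1 and Tek mark differentiated endothelium. Flt1 encodes a VEGF receptor with weak signalling activity that is also made by several cell types outside the vessel wall. The cells measured here were directed towards anterior definitive endoderm (ADE), a neighbouring product of the streak.

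Mouse embryonic stem cells (ESCs) of 1 dual-reporter line were the source of every sample, so that all groups carried a GFP reporter in Gsc (G) and a RedStar reporter in Hhex (H). There were 14 groups with 3 arrays each. The untreated series held ESC cultured with LIF, unsorted d2 cells, and the flow-sorted populations d3 G- and G+, d4 G- and G+, d5 G-, Glow and Ghigh, and d6 G+H- and G+H+, named by day and reporter level. The second series held d6 cultures for which the labels name no sort. Its Control had DMSO before and during differentiation. In ES_EPZ, 2.5 µM EPZ6438, an inhibitor of the Polycomb methyltransferase EZH2, was given to the ESCs and DMSO during differentiation, while in ADE_EPZ the ESCs had DMSO and EPZ6438 was present during differentiation. The sort gates were set on Gsc or Hhex reporter level and on none of the 10 genes, though the sorted populations could still differ in them. In RNA from whole populations, a smaller share of expressing cells and less RNA per cell cannot be told apart.

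The arrays had between 24504 and 40428 of 55681 probes well above background and no saturated spot. Gsc followed the sort, with a log2 fold change (FC) of 3.55 for d3 G+ against G- and 3.95 for d5 Ghigh against G-, and all 8 endoderm markers were called higher than in ESC in both d6 populations. Hhex averaged 12.17 ± 0.43 in d6 G+H- cells and 12.63 ± 0.19 in G+H+ cells (SD, n = 3), a difference that was not called. Among markers of mature blood and endothelium, Pf4 of 12 blood genes and Emcn of 14 endothelial genes were not well above background on any of the 42 arrays. A call required an adjusted p of at most 0.01 (limma, Benjamini-Hochberg over all probes) and an absolute log2 FC of at least 1.5. The untreated series lay on 5 slides and the EPZ6438 series on 3 others, so that series and slide cannot be told apart and no value was tested across them.

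RefSeq promoter windows (GRCm38.p6, 250 bases before to 50 after the start) were matched for 7 of the 10 genes. Those of Kdr, Pdgfra and Etv2 are printed as examples of genes with higher means in G+ than in G- cells on d3 and d4. For Kdr this refers to the dimmer of its 2 probes, chosen after its values were seen, and the brighter one was not called. Etv2 was called on d4 but not on d3. Flt1 and Runx1 also had higher means in G+ than in G- cells on both days, and their windows are not printed. Capitals mark matches, on either strand, to motifs of 3 kinds. The ETS motif searched was CCGGAA. The motif of GATA factors searched was GATAA. The E-box searched was CANNTG.
Kdr, chr5:75978406-75978705, minus strand: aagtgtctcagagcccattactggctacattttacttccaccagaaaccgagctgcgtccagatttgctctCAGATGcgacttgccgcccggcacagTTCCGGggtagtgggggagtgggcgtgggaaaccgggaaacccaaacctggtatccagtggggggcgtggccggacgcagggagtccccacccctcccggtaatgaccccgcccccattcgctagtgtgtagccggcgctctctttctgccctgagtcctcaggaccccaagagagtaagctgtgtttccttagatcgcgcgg
Pdgfra, chr5:75152001-75152300, plus strand: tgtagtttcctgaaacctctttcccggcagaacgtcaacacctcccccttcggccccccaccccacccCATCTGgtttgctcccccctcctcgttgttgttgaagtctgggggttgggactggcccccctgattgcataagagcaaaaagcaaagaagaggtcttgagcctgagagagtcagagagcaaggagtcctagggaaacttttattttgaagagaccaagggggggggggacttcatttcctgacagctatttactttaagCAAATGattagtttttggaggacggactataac
Etv2, chr7:30635803-30636102, minus strand: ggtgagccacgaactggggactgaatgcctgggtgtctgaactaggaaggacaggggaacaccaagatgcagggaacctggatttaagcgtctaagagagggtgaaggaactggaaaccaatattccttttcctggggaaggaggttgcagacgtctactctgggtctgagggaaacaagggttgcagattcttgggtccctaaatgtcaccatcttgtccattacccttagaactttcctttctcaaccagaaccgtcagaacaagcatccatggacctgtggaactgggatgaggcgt
The Kdr window held 1 ETS motif and 1 E-box that did not overlap, the Pdgfra window 2 E-boxes, and the Etv2 window none of the 3 motifs. The Flt1 window also held none of the 3, and Runx1 had 1 window with 3 E-boxes and another with 1 ETS motif. Of 32851 promoter windows of this length, 14.9% held the ETS motif, 25.41% the GATA motif and 72.31% the E-box. These letters describe the windows and were not tested against any binding data.

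Kdr encodes VEGFR2 and gave different pictures on its 2 probes. On the brighter probe, which stands for the gene under the rule, group means stayed between 10.64 and 11.17 over all 14 groups, a range of 0.53, and the gene was called in none of the 24 comparisons. On the dimmer probe, averaged over 10 spots, group means ran from 5.10 in d2 to 12.26 in d5 Glow, a range of 7.16 against a median SD within groups of 0.78. Both probes carry the same accession in the array annotation, and the part of the transcript each one reads was not analysed here. Kdr values below are those of the dimmer probe, chosen after its values were seen, and counts of called genes are given for both.

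**Figure D1:**
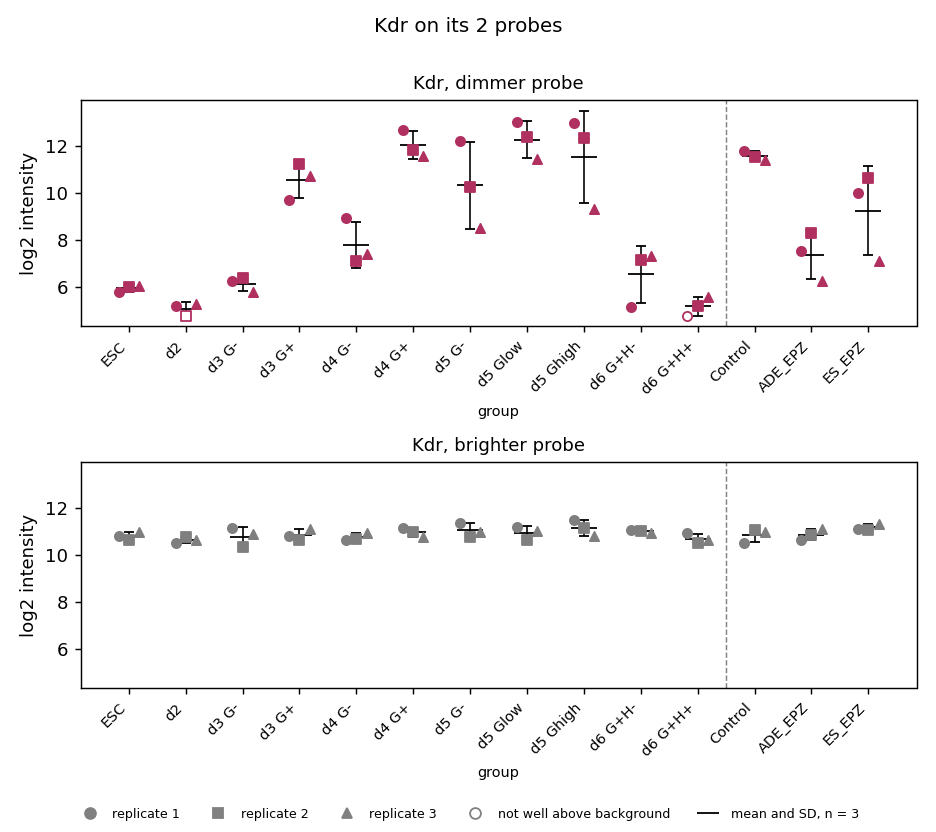
Log2 intensity of Kdr on the dimmer (top) and brighter (bottom) probe in each of the 14 groups, with 1 marker per array (filled where well above background), and the mean and SD (n = 3) as bars. The dashed line separates the untreated from the EPZ6438 series. The dimmer probe spans group means of 5.10 to 12.26, whereas the brighter one stays between 10.64 and 11.17.

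Kdr on the dimmer probe stood near the bottom of its range in ESC, at 5.80, 6.03 and 6.06, and in d2, at 5.21, 4.79 and 5.30, where 1 of 3 arrays was not well above background. In d3 G- it was at 6.27, 6.40 and 5.82, and in d3 G+ at 9.71, 11.24 and 10.71. The d3 populations did not overlap, and every G+ array was above every G- array. In d4 the G- arrays lay at 8.93, 7.12 and 7.41 and the G+ arrays at 12.68, 11.81 and 11.56, again without overlap. On d5 the populations overlapped. The d5 G- arrays spread over 12.20, 10.27 and 8.51, d5 Glow over 12.99, 12.36 and 11.43, and d5 Ghigh over 12.96, 12.35 and 9.32. On d6 the level was low, at 5.17, 7.18 and 7.34 in G+H- and at 4.80, 5.23 and 5.59 in G+H+, and the ranges of d6 G+H+ and d2 overlapped.

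Pdgfra, the receptor for PDGF ligands of early mesoderm, had a similar rise and a slower decline. ESC arrays were at 4.90, 4.68 and 4.86, of which 1 was well above background. Values were 6.06, 6.10 and 6.43 in d3 G- and 9.45, 10.84 and 11.06 in d3 G+, without overlap. In d4 the gene was at 8.10, 7.60 and 6.87 in G- and at 10.85, 10.64 and 10.81 in G+. Pdgfra had its highest group mean in d5 Ghigh, 10.84 ± 0.26 (SD, n = 3), and was still at 9.16 ± 0.71 in d6 G+H- cells and 7.71 ± 0.97 in G+H+ cells. The 4 highest groups, d5 Glow, d3 G+, d4 G+ and d5 Ghigh, overlapped each with its neighbour in the order.

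Pdgfrb, which encodes the second PDGF receptor and is best known from the cells around vessels, rose with Kdr and fell with it. Its group means were 6.93 ± 0.68 in d3 G- and 9.30 ± 0.16 in d3 G+, and 7.68 ± 0.13 in d4 G- and 10.04 ± 0.30 in d4 G+ (SD, n = 3). The highest mean, 10.48 ± 0.58, was that of d5 Glow. In d6 the arrays read 5.82, 6.28 and 6.48 in G+H- and 5.18, 5.55 and 5.36 in G+H+, inside or below the range of the ESC arrays, 5.51 to 6.03, except for the 2 higher G+H- arrays.

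Etv2 covered a smaller range, 6.33 to 10.44 in group means on the brighter probe and 5.86 to 9.43 on the dimmer. On the brighter probe the ESC arrays were at 7.63, 7.77 and 7.28 and the d2 arrays at 8.43, 8.50 and 8.68, a difference in means of 0.98 that was not called. The d4 G+ arrays, at 10.68, 10.22 and 10.44, lay above the d4 G- arrays, at 8.78, 8.29 and 8.85. After d5 Ghigh, at 10.48, 10.39 and 8.81, the gene dropped to 6.74, 7.77 and 7.52 in d6 G+H- cells and 5.71, 6.66 and 6.62 in the G+H+ cells, which was the lowest group and did not overlap with the next.

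**Figure D2:**
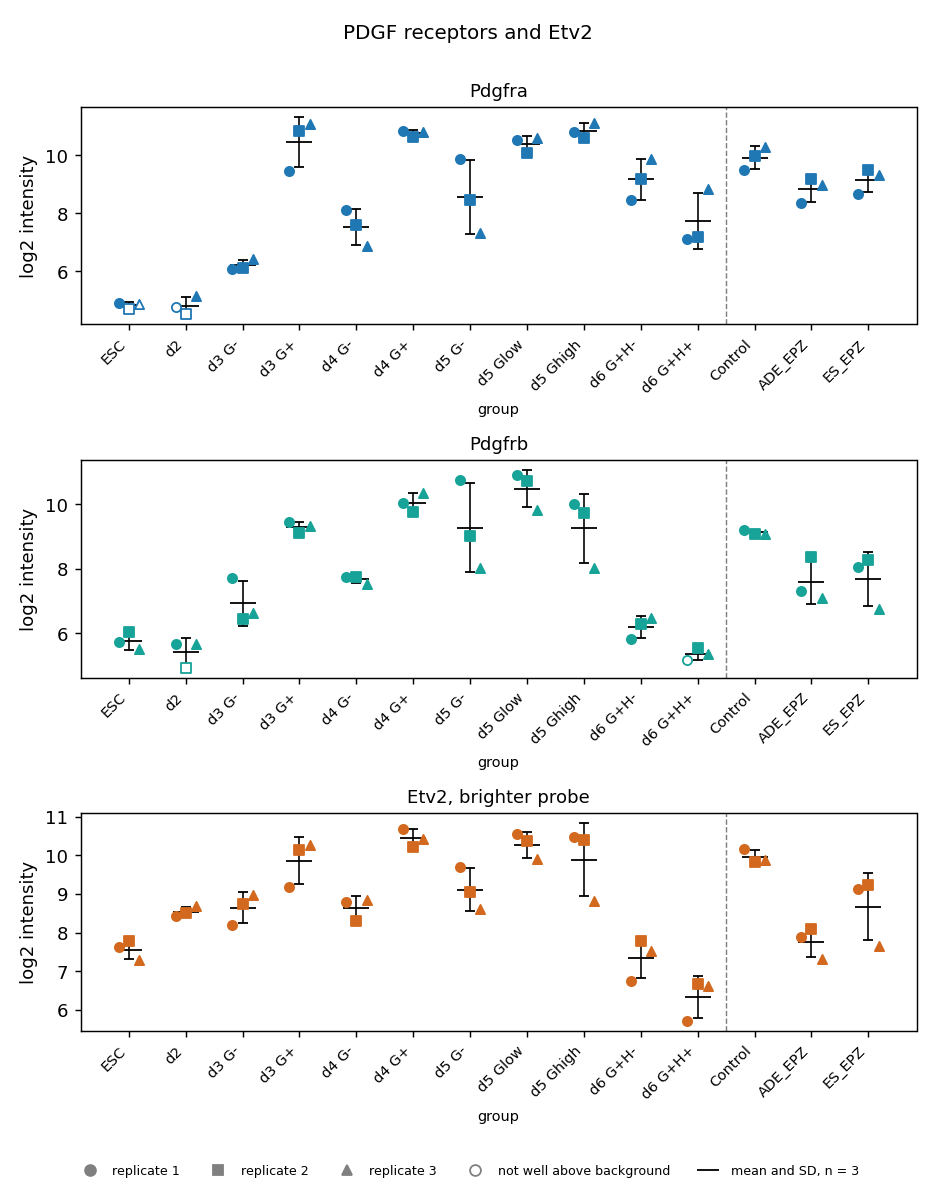
Log2 intensity of Pdgfra, Pdgfrb and Etv2 (brighter probe) in each group, with 1 marker per array (filled where well above background) and the mean and SD (n = 3) as bars. The dashed line separates the untreated from the EPZ6438 series. All 3 genes have their highest untreated means between d4 G+ and d5 Ghigh, and Pdgfrb and Etv2 have their lowest in d6 G+H+.

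Flt1 and Runx1 followed another course and stayed high to d6. Flt1 was at 8.62, 9.94 and 7.35 on the ESC arrays and at 7.80, 6.66 and 7.18 in d2. It reached 10.52, 10.73 and 11.22 in d4 G+ and 12.65, 12.76 and 13.70 in d5 Ghigh. At d6 the arrays read 14.38, 14.24 and 14.42 in the G+H- sort and 14.29, 14.54 and 14.45 in the G+H+ sort. The d5 Ghigh arrays did not overlap with those of d5 Glow, at 10.706, 10.999 and 12.231, and both d6 populations overlapped with each other and with ADE_EPZ at the top of the order.

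Runx1, the core factor of definitive blood formation, had its lowest values in d2 on both probes. On the brighter probe the d2 arrays read 6.17, 5.77 and 6.13 and the d4 G+ arrays 10.08, 9.29 and 9.60. From d4 G+ to the d6 populations group means stayed between 9.33 in d5 G- and 10.59 in d6 G+H-, and every neighbour in the order overlapped from d3 G- upwards. The probes gave the same order of groups up to d5 Ghigh, with a Pearson correlation of 0.99 over the 14 group means.

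**Figure D3:**
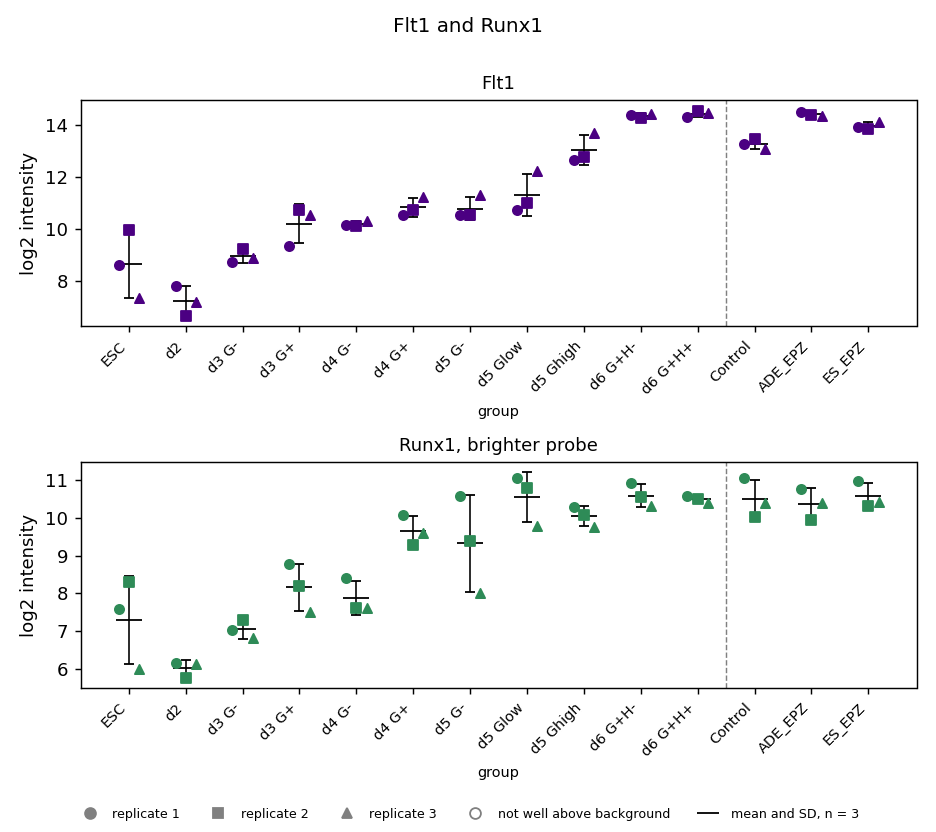
Log2 intensity of Flt1 and of Runx1 (brighter probe) in each group, with 1 marker per array and the mean and SD (n = 3) as bars. The dashed line separates the untreated from the EPZ6438 series. Flt1 climbs from a mean of 7.21 in d2 to 14.42 in d6 G+H+, and Runx1 from 6.02 in d2 to 10.59 in d6 G+H-.

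The other 4 genes, of differentiated endothelium and early blood, had ranges of group means from 1.1 for Tal1 to 2.52 for Tek. Tek, the angiopoietin receptor, was well above background on all 3 arrays in ESC alone, at 6.64, 6.95 and 7.16, and on 6 of the other 39 arrays. No other group mean of Tek exceeded 5.32. Pecam1 was above background on all 42 arrays and had its highest mean, 7.81 ± 0.07 (SD, n = 3), in d2, with 7.31 ± 0.33 in ESC and 6.41 ± 0.05 in d6 G+H-. Within d5 G-, Pecam1 ranged from 6.50 to 8.27. Cdh5, which encodes VE-cadherin, was above background on 17 arrays, and on all 3 arrays of d5 Glow, at 5.35, 6.09 and 5.77, d5 Ghigh, at 5.62, 6.20 and 5.95, and ADE_EPZ, at 5.69, 5.59 and 6.48. Tal1 was above background on 21 arrays, and on all 3 in ESC, d2 and d3 G-. Its group means had a range of 1.1, the highest being 5.86 in ESC and the lowest 4.76 in d6 G+H+.

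**Figure D4:**
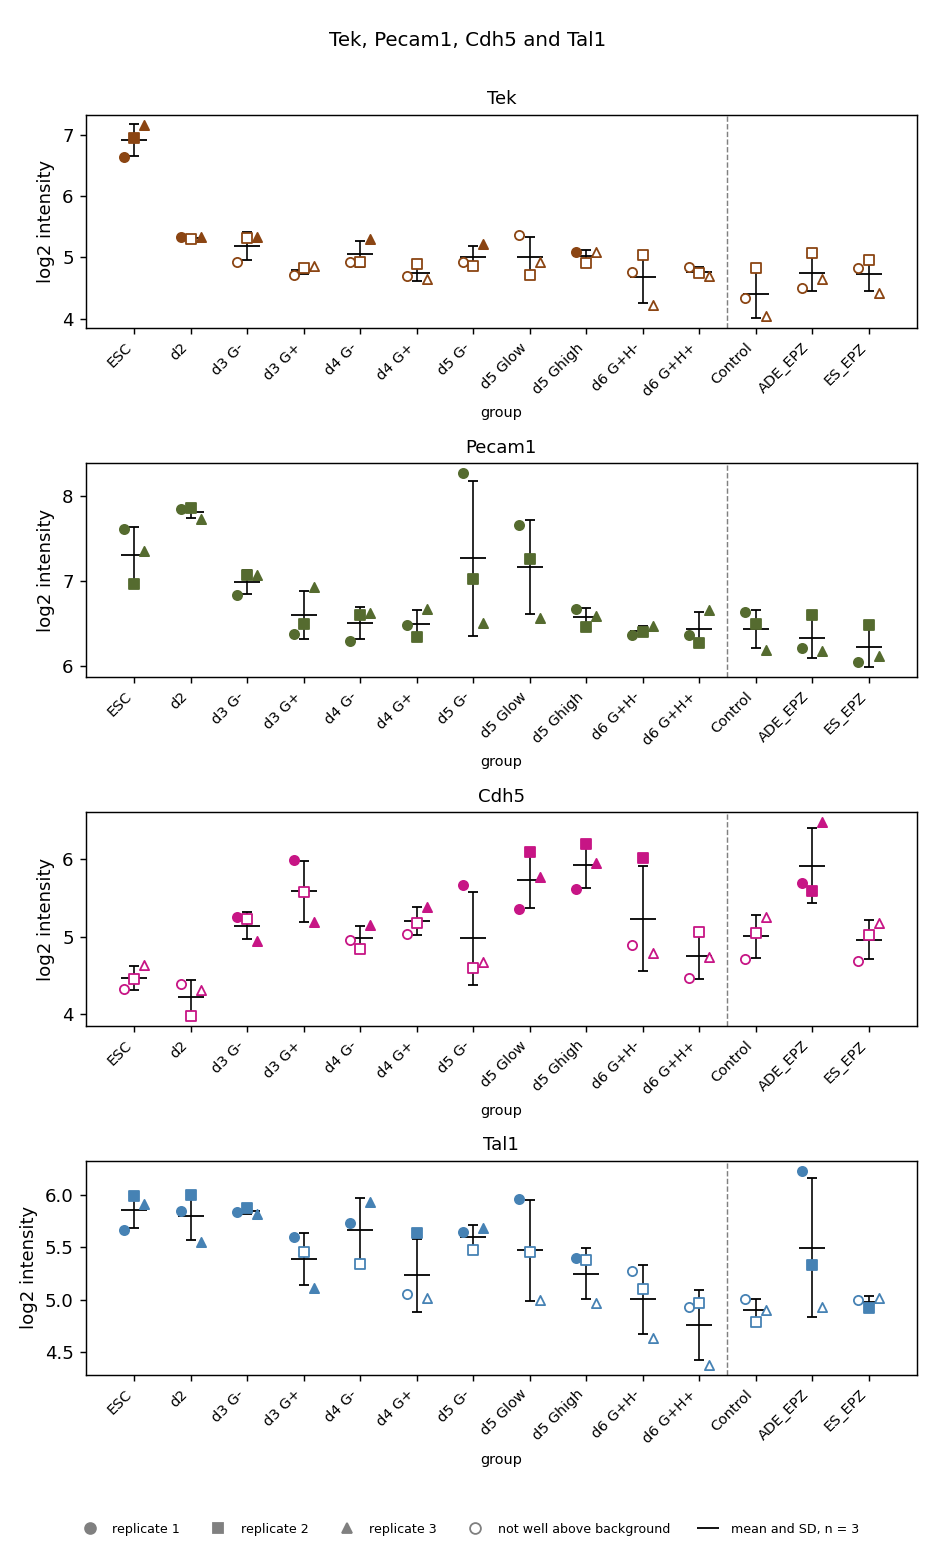
Log2 intensity of Tek, Pecam1, Cdh5 and Tal1 in each group, with 1 marker per array (open where not well above background) and the mean and SD (n = 3) as bars. Each panel has its own scale, and the dashed line separates the untreated from the EPZ6438 series. Tek is filled on all 3 arrays in ESC alone, and Cdh5 in d5 Glow, d5 Ghigh and ADE_EPZ.

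The 10 differentiating populations were each compared with ESC, so these comparisons share the 3 ESC arrays. Because the 10 genes and the lists were picked with earlier results known, counts beside all-gene shares are descriptive and not a test. In d2, none of the 10 genes was called higher and only Tek lower, against 0.358% higher and 1.37% lower among all 20957 genes, and 4 genes had an unadjusted p under 0.05. In d3 G-, again Tek alone was called lower, beside 1.3% of all genes, and none higher, beside 1.12%, with 5 genes at an unadjusted p under 0.05. In d3 G+, 4 genes were called higher (5 with the dimmer Kdr probe) beside 2.89% of all genes, namely Pdgfra, Pdgfrb, Etv2 and Flt1. The Flt1 call, at 1.56 ± 0.41 (adjusted p = 0.0058), held in 2 of 6 fits that left out an array. It was lost without ESC replicate 1 (1.55) or 3 (0.92), without d3 G+ replicate 2 (1.30) or 3 (1.39), and with slide as a block (1.17, adjusted p = 0.0668), an offset of 50, the untreated series alone or the compared groups alone. The number was 2 in d4 G- beside 1.47%, Pdgfra and Pdgfrb, of which Pdgfrb (1.92) held in 1 of 6 fits that left out an array (1.79 to 2.05, adjusted p up to 0.0374), namely the one without ESC replicate 2. It was 5 in d4 G+ beside 3.03%, 5 in d5 G- beside 2.14%, 5 in d5 Glow beside 3.52% and 5 in d5 Ghigh beside 3.63%. In d4 G+ and in all 3 populations of d5 the called genes were Pdgfra, Pdgfrb, Etv2, Flt1 and Runx1, with Kdr in addition on its dimmer probe. In d6 G+H- and G+H+ the called genes were Pdgfra, Flt1 and Runx1, 3 of 10 beside 5.11% and 5.8% of all genes. Tek was the only gene called lower on the brightest probes in any of the 10 populations. Beside it, 3.71% of all genes were lower in d3 G+, 1.75% in d4 G-, 4.38% in d4 G+, 2.18% in d5 G-, 4.23% in d5 Glow and 4.57% in d5 Ghigh. At d6 the shares were 5.11% for G+H- and 5.33% for G+H+.

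The largest difference of each gene from ESC was, for Kdr (dimmer probe), that in d5 Glow, with a log2 FC of 6.30 ± 0.815 (SE, adjusted p = 2.58e-07), and for Flt1 that in d6 G+H+, with 5.79 ± 0.41 (adjusted p = 3.21e-13). For Pdgfra it was that in d5 Ghigh, with a fitted 6.03 ± 0.46 (adjusted p = 2.77e-12), where 1 of 3 ESC arrays was well above background. Tek was called lower in all 10 populations. In the 5 populations where no array was well above background the difference was a bound, at least 4.34-fold in d3 G+, 4.50-fold in d4 G+, 3.765-fold in d5 Glow, 4.67-fold in d6 G+H- and 4.44-fold in d6 G+H+. In the other 5, where 1 or 2 of 3 arrays were well above background, the log2 FC lay between -1.92 and -1.59. In d2 the call was lost without ESC replicate 3 (-1.47). With a normexp offset of 50 in the background correction the log2 FC of Tek shrank to between -1.01 and -1.30 and passed the threshold in no population. In d5 G-, the call of Etv2 rested on the brighter probe, with 1.56 ± 0.39 (adjusted p = 0.00499), and was lost without ESC replicate 1 or 3 and without d5 G- replicate 1 or 2, with log2 FCs of 1.27 to 1.59. In the same population the call of Flt1 was lost without ESC replicate 3 (1.5) and that of Runx1 without ESC replicate 3 (1.39) or d5 G- replicate 1 (1.40). On the dimmer probe Runx1 was also called lower in d2, with -1.80 ± 0.39 (adjusted p = 0.00252), where 1 of 3 d2 arrays was well above background, while the brighter probe gave -1.28 ± 0.46 and no call. That call was lost without ESC replicate 1 (-1.70) or 2 (-1.53), without d2 replicate 2 (-1.52), with an offset of 50 (-1.01, adjusted p = 0.0542) and with the compared groups alone (adjusted p = 0.031).

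Within d3 and within d4, G+ cells had more RNA of both PDGF receptors than G- cells. On d3, Pdgfra and Pdgfrb were called higher in G+, 2 of 10 genes (3 with the dimmer Kdr probe) beside 0.701% of all genes, and none lower beside 1.1%. The median log2 FC was 0.78 over the 10 genes and 0.01 over all genes. The differences were 4.26 ± 0.46 for Pdgfra (SE, adjusted p = 1.14e-07), 2.37 ± 0.48 for Pdgfrb (adjusted p = 0.00155) and 4.39 ± 0.815 for Kdr on its dimmer probe (adjusted p = 0.000539). Etv2 differed by 1.22 ± 0.39 and Flt1 by 1.26 ± 0.41, with all 9 pairs of arrays in the same direction, and neither was called. Leaving out d3 G- replicate 2 or 3 ended the call of Pdgfrb, with adjusted p of 0.0213 and 0.0125, and Kdr and Pdgfra kept theirs without each of the 6 arrays in turn.

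On d4, Pdgfra, Pdgfrb and Etv2 were called higher in G+ than in G-, 3 of 10 genes (4 with the dimmer Kdr probe) beside 0.806% of all genes, and none lower beside 1.47%. Kdr differed by 4.20 ± 0.815 on the dimmer probe (SE, adjusted p = 0.000928), Pdgfra by 3.25 ± 0.46 (adjusted p = 1.57e-05), Pdgfrb by 2.37 ± 0.48 (adjusted p = 0.00154) and Etv2 by 1.80 ± 0.39 (adjusted p = 0.00297). For Runx1 the dimmer probe gave 2.27 ± 0.39 (adjusted p = 0.000199) and a call, and the brighter probe 1.78 ± 0.46 (adjusted p = 0.0154) and none, although it was called with slide as a block (1.85, adjusted p = 0.00588) and with replicate number as a block (adjusted p = 0.00125). Leaving out d4 G+ replicate 1 lifted the adjusted p of Kdr to 0.013, of Pdgfrb to 0.0103 and of Etv2 to 0.0286. The call of Kdr was also lost without d4 G- replicate 2 (adjusted p = 0.0107), that of Pdgfrb without d4 G- replicate 3 (0.0108) or d4 G+ replicate 3 (0.0134), and that of Etv2 without d4 G- replicate 2 (0.0279) or d4 G+ replicate 3 (0.0133), while Pdgfra was called without each of the 6 arrays in turn. For a change of the difference between G+ and G- from d3 to d4, limma called none of the 10 genes, beside 0% of all genes in either direction, and none had an unadjusted p under 0.05. The 95% interval of that change for Kdr was -2.53 to 2.16 on the dimmer probe.

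On d5 the separation by Gsc level was not called for any of the receptors between Glow and G- cells. Between d5 Glow and G- no gene was called by limma, beside 0.129% higher and 0.63% lower over all genes, and 5 of 10 genes had an unadjusted p under 0.05. The log2 FC was 1.935 ± 0.815 for Kdr (dimmer probe), 1.84 ± 0.46 for Pdgfra and 1.21 ± 0.48 for Pdgfrb. The d5 G- arrays lay far apart, as given above for Kdr, and replicate 1 was the highest of them for Kdr, Pdgfra, Pdgfrb, Etv2 and Runx1. Without d5 G- replicate 1 the log2 FC was 2.50 ± 0.45 for Pdgfra (adjusted p = 0.000694) and 1.95 ± 0.46 for Pdgfrb (adjusted p = 0.00963), and both were called. On that array the median of the 20 mesoderm genes was 9.87, against 8.58 and 7.03 on the others, and that of the 8 endoderm markers 8.34, against 8.49 and 9.40. The part of this in the result was not tested. The fit without d5 G- replicate 1 kept replicate 1 of d5 Glow, which was also the highest of its group for Kdr (dimmer probe, 12.99). The difference between the sorted populations changed from d4 to d5 by -2.265 ± 1.15 (95% interval -4.61 to 0.08) for Kdr on the dimmer probe and -1.41 ± 0.65 for Pdgfra. No gene was called for it by limma, beside 0% of all genes in either direction, and on the brightest probes 1 of 10, Pdgfra, had an unadjusted p under 0.05.

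The d5 Ghigh cells had more Flt1 and Pdgfra RNA than d5 G- cells. Against d5 G- the genes called higher were Flt1, with 2.26 ± 0.41 (SE, adjusted p = 0.00041), and Pdgfra, with 2.29 ± 0.46 (adjusted p = 0.00126), 2 of 10 beside 0.978% of all genes, and none was lower, beside 1.6%. Against d4 G+, Flt1 was higher by 2.21 ± 0.41 (adjusted p = 0.000981), 1 of 10 genes beside 0.716%, with none lower beside 0.439%. Against d5 Glow it differed by 1.72 ± 0.41 with all 9 pairs of arrays in the same direction (adjusted p = 0.0451), and without d5 Glow replicate 3 the difference was 2.18 and called (adjusted p = 0.00516). No gene was called in that comparison, beside 0.243% higher and 0.0239% lower over all genes, and 3 of 10 had an unadjusted p under 0.05. Between d5 Glow and d4 G+ also none was called, beside 0.0907% higher and 0.0477% lower over all genes, and 1 of 10 had an unadjusted p under 0.05. With only the 6 arrays of the compared groups in the fit, Flt1 missed the threshold against d5 G- (adjusted p = 0.0247) and against d4 G+ (adjusted p = 0.0296), and against d4 G+ it did so without d5 Ghigh replicate 3 (adjusted p = 0.0169) or d4 G+ replicate 1, at 2.06. Pdgfra missed the threshold against d5 G- without d5 G- replicate 3 (1.68, adjusted p = 0.0316) and with only the 6 arrays (adjusted p = 0.137).

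Within d5 Ghigh, replicate 3 stood apart. It was the lowest for Kdr (9.32 against 12.96 and 12.35), for Pdgfrb (8.04 against 10.00 and 9.74) and for Etv2 (8.81 against 10.48 and 10.39), and the highest for Pdgfra and Flt1. On the same array the median of the mesoderm genes was 7.84, against 10.41 and 10.15, and Gsc and Cer1, a marker of anterior endoderm, were at 14.06 and 14.91, against 12.23 and 12.58 for Gsc and 11.47 and 12.30 for Cer1. Replicate 3 was also the lowest for Kdr in d5 G- (8.51) and d5 Glow (11.43), and the highest there for Gsc (9.80 and 12.41) and Cer1 (10.11 and 12.55). In the untreated series the replicate 3 arrays lay on other slides than replicates 1 and 2, so replicate and slide cannot be told apart. The part of these markers in the values of replicate 3 was not tested.

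From d5 Ghigh to d6 G+H-, the step after which cells are sorted by Hhex, Kdr (dimmer probe), Pdgfrb and Etv2 fell together. On the brightest probes Pdgfrb and Etv2 were called lower, 2 of 10 genes (3 with the dimmer Kdr probe) beside 0.783% of all genes, and none was higher, beside 1.39%. Kdr fell by 4.98 ± 0.815 on the dimmer probe (SE, adjusted p = 0.000111), Pdgfrb fell by 3.07 ± 0.48 (adjusted p = 6.14e-05) and Etv2 fell by 2.55 ± 0.39 (adjusted p = 4.44e-05). Pdgfra differed by -1.68 ± 0.46 and Flt1 by 1.315 ± 0.41, and neither was called (adjusted p = 0.0198 and 0.0496). Without d5 Ghigh replicate 3 the drops were larger, -6.10 for Kdr, -3.68 for Pdgfrb and -3.09 for Etv2. With only the 6 arrays of both groups in the fit none of the 3 was called, with adjusted p of 0.0675, 0.0471 and 0.0604 in the same order. Between d6 G+H+ and G+H- no gene was called by limma, beside 0% of all 20957 genes in either direction, of which 1261 had an unadjusted p under 0.05. Among the 10 genes Pdgfra (-1.45 ± 0.46) and Etv2 (-1.02 ± 0.39) had an unadjusted p under 0.05.

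Etv2, and Kdr on its dimmer probe, were lower at d6 in cultures that had EPZ6438 during differentiation. On its brighter probe Kdr averaged 10.84 in Control and 10.85 in ADE_EPZ and was not called. In ADE_EPZ, Etv2 was the only gene called lower than in Control on the brightest probes, 1 of 10 (2 with the dimmer Kdr probe) beside 0.802% of all genes, and none was higher, beside 1.98%. Kdr on the dimmer probe was at 11.78, 11.51 and 11.40 on the Control arrays and at 7.56, 8.30 and 6.26 on the ADE_EPZ arrays, a difference of -4.19 ± 0.815 (SE, adjusted p = 0.00055). Etv2 was at 10.17, 9.84 and 9.89 in Control and at 7.89, 8.10 and 7.30 in ADE_EPZ, a difference of -2.20 ± 0.39 (adjusted p = 0.000187), and its dimmer probe gave -2.30 ± 0.38. Each slide held 1 array of every regimen, and within slides the difference was -5.25, -3.83 and -3.48 for Kdr and -2.53, -2.01 and -2.07 for Etv2. The Control array of a slide had another replicate number than its ADE_EPZ array, so these are not differences between same-numbered replicates. Both calls held without each of the 6 arrays in turn, with Kdr (dimmer probe) between -4.65 and -3.63.

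The other genes were not called in ADE_EPZ. Pdgfrb differed from Control by -1.53 ± 0.48 (SE, adjusted p = 0.0345), Pdgfra by -1.09 ± 0.46 (adjusted p = 0.148) and Flt1 by 1.135 ± 0.41 (adjusted p = 0.0779), with all 9 pairs of arrays in the same direction in each case and no call. Runx1 differed by -0.11 ± 0.46 in ADE_EPZ and 0.08 ± 0.46 in ES_EPZ on the brighter probe. The highest values of Cdh5 in the second series were those of ADE_EPZ, 5.69, 5.59 and 6.48, against 4.71, 5.05 and 5.25 in Control, where no array was well above background, and the difference of 0.92 ± 0.28 was not called (adjusted p = 0.0309).

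With EPZ6438 given before differentiation no gene passed the threshold. In ES_EPZ no gene was called against Control by limma, beside 0.062% lower and 0.367% higher over all genes, and 2 of 10 had an unadjusted p under 0.05. Kdr was at 10.00, 10.65 and 7.12 (dimmer probe) and differed by -2.31 ± 0.815 (SE, 95% interval -3.96 to -0.65, adjusted p = 0.157). Etv2, at 9.13, 9.22 and 7.66, differed by -1.29 ± 0.39 (adjusted p = 0.0814) and Pdgfrb by -1.44 ± 0.48 (adjusted p = 0.127). For Kdr and Etv2, replicate 3 was the lowest of ES_EPZ, and without it the differences were -1.24 ± 0.82 and -0.79 ± 0.40. That array also had the highest Gsc of the group, 13.49 against 12.43 and 12.37, and a mesoderm median of 7.57 against 8.18 and 8.53, and their part in the result was not tested. In ADE_EPZ, replicate 3 lay on the same slide and was likewise the lowest for Kdr (6.26) and Etv2 (7.305) and the highest for Gsc (13.43). Between ADE_EPZ and ES_EPZ no gene was called by limma, beside 0.115% higher and 0.0143% lower over all genes. The difference in Kdr was -1.88 ± 0.815 (95% interval -3.54 to -0.23, adjusted p = 0.441), and 3 of 10 genes had an unadjusted p under 0.05.

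**Figure D5:**
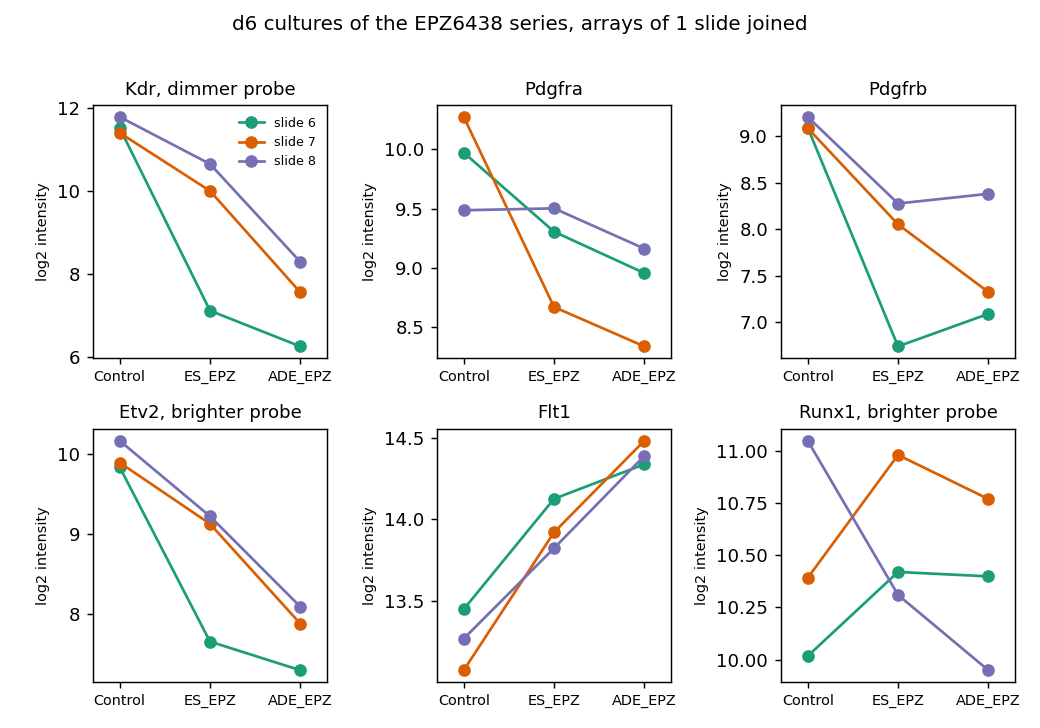
Log2 intensity of 6 genes in Control, ES_EPZ and ADE_EPZ cultures at d6, with each line joining the 3 arrays of 1 slide and a separate scale in each panel. The Control array of a slide has another replicate number than the EPZ6438 arrays it is joined to. Kdr (dimmer probe) and Etv2 (brighter probe) decrease from Control to ADE_EPZ on all 3 slides, and Flt1 increases on all 3, by 0.89, 1.40 and 1.12.

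Of 12 ligands of the VEGF, PDGF and angiopoietin receptors, 1 was called lower than in ESC in each of 9 populations and 3 in d6 G+H+, while 1 was higher in d4 G+ and 2 in each d6 population. Pdgfc, a ligand of PDGFRA, was among those lower in 8 of the 10, by a log2 FC of -1.88 to -3.58. Over all genes, 1.3% to 5.33% were lower than in ESC and 0.358% to 5.8% higher, depending on the population. Between populations, Pdgfc was called lower in d3 G+ than in G- (-1.52) and Angpt2, a TEK ligand, higher in d6 G+H- than in d5 Ghigh (2.25), in ADE_EPZ than in Control (2.80) and in ES_EPZ than in Control (2.35). Tek itself was not well above background on any of those d6 arrays. Over all genes, 1.1% were lower in d3 G+ than in G-, and 1.39%, 1.98% and 0.367% were higher in the other comparisons in turn. Of 12 related receptors, 1 to 4 were called higher than in ESC in 8 of the 10 populations, with 4 in d5 Ghigh, and 1, Eng, lower in both d6 populations. On d3, Aplnr (2.29) and Nrp1, a VEGF co-receptor, were called higher in G+ than in G-, Nrp1 by at least 4.78-fold since no d3 G- array was well above background. On d4, Nrp1 (2.77, with 2 of 3 G- arrays well above background) and Ptprb (1.81) were higher in G+. The list median was 0.03 in the d3 comparison and 0.41 in the d4 comparison, beside 0.01 and 0.02 over all genes. The share of all genes called higher in G+ was 0.701% on d3 and 0.806% on d4.

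Of 21 transcription factors of blood and endothelium, Gata2 was called higher in d3 G+ than in G- (1.76) and Sox17 in d4 G+ (2.38, with 2 of 3 G- arrays well above background). Each was 1 of 21, beside 0.701% of all genes on d3 and 0.806% on d4. In d5 Ghigh against G-, 4 of the 21 were higher, beside 0.978% of all genes. The largest were Sox17 (4.94), Gfi1 (3.77, with 1 of 3 G- arrays well above background) and Hhex (3.03), of which Sox17 and Hhex are also on the endoderm list. Fli1, an ETS factor of endothelium, was not well above background on any ESC array and was called higher in d5 G-, by at least 5.03-fold, and in d5 Glow, by at least 8.59-fold. Erg was not well above background on any array.

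None of the endothelial and blood genes on the lists was called higher in G+ than in G- cells on d3 or d4. Over all genes 0.701% were higher on d3 and 0.806% on d4, so that a count of none lies near these shares. The shares of all genes called lower were 1.1% on d3 and 1.47% on d4. Of 14 endothelial genes, 2 were called lower in d3 G+ than in G-, the tight-junction gene Cldn5 (-2.07) and Esam (-1.68, with 1 of 3 G+ arrays well above background), and 2 in d4 G+, Cldn5 (-2.36) and Cd34 (-2.25, with 2 of 3). Their median log2 FC was -0.26 on d3 and -0.32 on d4. Between 7 and 11 of the 14 were well above background on all 3 arrays of a group. Of 12 blood genes, Myb was called lower in d4 G+ than in G- (-2.18), the list median was 0.08 on d3 and -0.09 on d4, and 3 to 6 of the 12 were above background on all 3 arrays of a group.

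Of 20 genes of the wider mesoderm, 8 were called higher in d3 G+ than in G- beside 0.701% of all genes, with a list median of 2.25, the largest being Mesp1 (4.94), Mixl1 (3.25) and Cdh11 (3.23), and 6 in d4 G+ beside 0.806%, with a median of 1.88. From d5 Ghigh to d6 G+H-, 9 of the 20 were called lower beside 0.783% of all genes, with a median of -1.63, led by Mesp1 (-4.20), Bmp4 (-4.04) and Foxf1 (-3.61), of which Mesp1 and Foxf1 were well above background on 2 of 3 d6 arrays. In ADE_EPZ against Control 6 were called lower beside 0.802%, with a median of -1.21, led by Bmp4 (-3.77), Msx2 (-3.45) and Mixl1 (-3.34), and in ES_EPZ 1 beside 0.062%, Mixl1 (-1.72). Of the 8 endoderm markers, 3 were higher in d3 G+ than in G- and 4 in d4 G+, beside 0.701% and 0.806% of all genes, with medians of 1.93 and 2.39. In ADE_EPZ 1 was higher than in Control, Hhex (2.23), beside 1.98% of all genes. Of 8 pluripotency markers 4 were lower in G+ than in G- on both days, beside 1.1% and 1.47% of all genes. Among them was Klf2 (-3.19 on d3 and -3.11 on d4), and 1 other marker, Tbx3, was higher (4.10 and 3.62). The shares of all genes just given apply to the remaining markers too. Of 8 extraembryonic endoderm markers Rhox5 was lower in d3 G+ (-1.73) and higher in ADE_EPZ (1.84), and of 5 heart muscle markers Myh6 was lower in d3 G+ (-2.19) and d4 G+ (-2.03) and Myl7 higher in d4 G+ (2.93, with 2 of 3 G- arrays well above background).

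The likeness of the patterns was described by Pearson correlation over the 14 group means, which share 1 normalisation and include groups from different slides. Kdr (dimmer probe) correlated with Pdgfrb at 0.97, with Etv2 at 0.88, with Pdgfra at 0.84 and with Flt1 at 0.18, while Flt1 correlated with Runx1 (brighter probe) at 0.92. Among about 3498 genes whose group means ranged over at least 2 log2 units, those most like Kdr were Boc (0.978), Igfbp4 (0.974) and Cdh11 (0.974). For Pdgfra they were Gfra2 (0.967), Six2 (0.956) and Efnb3 (0.956), for Pdgfrb Foxf1 (0.977), Hand1 (0.969) and St6galnac4 (0.956), and for Etv2 Sh3bp1 (0.961), Zeb2 (0.955) and Lmo7 (0.951). For Flt1 they were Gdpd5 (0.990), Arhgap6 (0.987) and Crtc3 (0.987), for Runx1 Npc2 (0.982), Vasn (0.980) and Tnfaip2 (0.976), and for Tek Acsbg3 (0.978), Itgb7 (0.964) and Ankrd35 (0.958).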

How the data were processed

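RNA of 42 samples was hybridised to single-colour Agilent mouse arrays, 1 array per sample. The authors read the arrays with Feature Extraction 11.0.1.1, corrected the background with normexp (offset 10), quantile normalised all arrays together in limma and deposited log2 values, 1 per spot. These were averaged over the spots of a probe. The deposited scanner intensity values served for the marks of probes well above background and for the recomputed alternatives. The lowest correlation of an array's deposited values with those recomputed was 0.999979. Columns of the scanner files other than these were not used.

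Probes were named through their RefSeq accession, and 28066 of 55681 probes carried one. One mean per group was fitted over all 42 arrays with lmFit and eBayes (R 4.3.3, limma 3.58.1), and p-values were adjusted by Benjamini-Hochberg over all 55681 probes. An SE is that of this fit. Counts over all genes used the brightest probe of each of 20957 genes. The series' design describes replicates as independent experiments. On simulated data 196 of 200 genes raised by 2.5 (log2) were called for d4 G+ against G-. For ADE_EPZ against Control it was 194 of 200, and 0 unchanged genes were called in either comparison. These counts describe the simulated data and give no error rate for the real arrays. In the real arrays the SD of a gene differed between groups, and same-numbered replicates tended to deviate together. "At least" folds set the mean of the brighter group against, per dim array, the higher of its lowest signal well above background and the probe's own value. The number of arrays limits the precision.

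The 10 genes and the gene lists were chosen with earlier results of these data known. Named genes were the 10, the 3 genes most like each by correlation, and up to 3 called genes with the largest change per list and comparison. The alternatives were a normexp offset of 50, scaling to the 75th percentile, quantile normalisation within each series, a filter on dim probes, slide or replicate number as a block, the mean over a gene's probes, fits on the arrays of 1 series or of the compared groups alone, and leaving out each array. Counts with the dimmer Kdr probe were added after seeing the data. One gene of the blood list is not reported here by name.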

Additional observations from a re-analysis of the deposited data

How the results depend on the processing

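Of the 77 calls among 312 tests of the 13 probes, 77 were shared with recomputed values at offset 10, 63 with an offset of 50, 73 with scaling to the 75th percentile, 77 with quantile normalisation within each series, 75 with slide as a block, 77 with the filter on dim probes, 76 with the arrays of 1 series alone and 58 with the compared groups alone. All 77 kept their sign in every batch of arrays that gave a value. The batches were subsets of the same arrays from which the calls had been chosen. Agreement in sign was therefore likely beforehand and gives no independent support for the calls. The cause of the changes below was not tested, except that fewer samples entered the fits of the compared groups.

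With an offset of 50, the count of genes called lower than in ESC was 0 in each of the 10 populations in place of 1, and 1 in place of 2 was called higher in d4 G-. With the 75th percentile, 0 were lower in d2 and 1 was higher in d3 G-. With the mean over probes, 2 were lower in d2, 5 were higher in d4 G+ than in G-, 2 were lower in ADE_EPZ than in Control, and Kdr, at 0.01 on the brighter probe, turned to -2.09 in ADE_EPZ. With the compared groups alone, 3 were higher in d4 G+ and 1 in d5 G- than in ESC, and 0 were called for d5 Ghigh against G-, d5 Ghigh against d4 G+ and d6 G+H- against d5 Ghigh. With the dimmer Kdr probe, 2 were lower in ADE_EPZ.

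Leaving out each array in turn gave 1 to 2 genes lower in d2, and higher counts of 1 to 3 in d4 G- and 2 to 5 in d5 G- against ESC. For G+ against G- they were 1 to 2 on d3 and 1 to 3 on d4, and on d5 0 to 2 for Glow and 1 to 2 for Ghigh. They were 0 to 1 for d5 Ghigh against Glow and against d4 G+.

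Same-numbered replicates tended to deviate together, and the main fit held no term for this. The correlation of their deviations exceeded 0.1 in 127 of 165 pairs of the untreated series and in 6 of 9 of the EPZ6438 series. For differently numbered pairs it did so in 76 of 330 and 2 of 18. The median correlation in the untreated series was 0.232 for same-numbered and -0.195 for differently numbered pairs. With the replicate block, 79 probes and comparisons were called, the 77 included, and Flt1 in d4 G- against ESC and Runx1 (brighter probe) in d4 G+ against G- (adjusted p = 0.00125) were gained.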
